A study of Mus musculus with 3 samples.

Results

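The 10 genes described here encode parts of the canonical Wnt pathway: the ligands Wnt3, Wnt3a, Wnt6 and Wnt8a, the carrier Wls, the receptors Fzd5 and Fzd7, and the target genes Axin2, Sp5 and Lef1. They are 10 of the 32285 genes counted in each cell and were grouped by their known roles in the pathway. Their levels are given in epiblast (Epi) and visceral endoderm (VE) cells of 3 stem cell aggregates, and, within Epi cysts, in cells with and without a read of T (Brachyury), a transcription factor of the primitive streak.

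All cells descended from mouse E14tg2a embryonic stem cells that carry a doxycycline-inducible GATA4 transgene (iGATA), and BELAs and VE cysts came from the clone C6. For BELAs, bilayered embryo-like aggregates with an Epi core and a VE layer, cells were treated with doxycycline (0.5 µg/ml, 8 h) in 2i + LIF, kept for 16 h in N2B27 without added factors, seeded at 30000 cells per cm2 and collected as floating aggregates after 3 days in N2B27. For VE cysts, the same 8 h of doxycycline were followed by another 16 h of doxycycline in N2B27 with FGF4 (10 ng/ml) and heparin (1 µg/ml), and FGF4 and heparin were kept for the 3 days after seeding. For Epi cysts, iGATA cells grew in matrigel for 1 day in 2i + LIF and then for 3 days in N2B27, with no doxycycline named. GATA4 expression drives cells to primitive endoderm, so that cells with too little of it remain Epi-like. About 200 BELAs and 200 VE cysts were picked by hand, and VE cysts with a visible Epi core were left out, which partly sets the number of Epi cells in that library. The 2i medium contains an inhibitor of GSK3, an enzyme that marks β-catenin for destruction, and all 3 cultures left it before the last 3 days, BELAs and VE cysts 16 h earlier than Epi cysts. Aggregate, culture medium, matrix and library differ together and cannot be told apart in any comparison between libraries.

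Wnt proteins are lipid-modified ligands that need Wls to reach the cell surface. There they bind Frizzled receptors (Fzd) with an LRP co-receptor, which stops the destruction of β-catenin. β-catenin then joins TCF/LEF factors on DNA and switches on targets such as Axin2, which feeds back to restrain the pathway, Sp5, a zinc-finger factor, and Lef1, itself a partner of β-catenin. In the mouse embryo Wnt3 is required for the primitive streak, and secreted Wnt antagonists come from the anterior visceral endoderm (AVE), a group of VE cells on the opposite side of the egg cylinder.

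Promoters of 9 of the 10 genes were found in the RefSeq table (GRCm38.p6), and the TCF/LEF motif CTTTGAT was searched on both strands in the window from 250 bases before to 50 after each gene's start. Only the Sp5 window held it, 104 bases before the start and on the strand of the gene, while 3.73% of all 32851 promoters of that length held at least 1 match. By gene this was 1 of the 9, beside 4.29% of all 27025 genes. The T-box motif AGGTGTGA, searched in the same way, was in none of the 9 and in 1.28% of all promoters (1.48% of all genes). The 250 bases before the start are shown for Sp5 (chr2:70474673-70474922, plus strand) and for Axin2 (chr11:108920099-108920348, plus strand), the 2 of the 3 member targets that differed most between Epi cells of the libraries, with the TCF/LEF match in capitals.
Sp5: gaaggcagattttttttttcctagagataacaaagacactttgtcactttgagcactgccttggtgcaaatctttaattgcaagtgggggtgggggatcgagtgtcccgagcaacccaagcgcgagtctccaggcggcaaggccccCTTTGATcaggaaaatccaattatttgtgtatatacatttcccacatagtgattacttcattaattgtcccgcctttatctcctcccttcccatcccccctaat
Axin2: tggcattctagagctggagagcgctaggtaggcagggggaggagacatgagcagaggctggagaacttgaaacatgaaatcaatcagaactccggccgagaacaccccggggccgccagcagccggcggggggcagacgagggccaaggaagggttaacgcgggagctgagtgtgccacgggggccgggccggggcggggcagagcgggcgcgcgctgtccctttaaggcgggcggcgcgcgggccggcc
A match is a description of letters and not a bound site, and its absence from the Axin2 window says only that these letters are not in it. The GC content of the 250 bases was 46.0% for Sp5 and 69.2% for Axin2.

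Transcriptomes were counted from the 3′ ends of captured mRNA molecules, each marked by a unique molecular identifier (UMI), in 1 library per aggregate. The files held 2220, 1076 and 881 barcodes for BELAs, Epi cysts and VE cysts. Cells with 4000 genes or more and no more than 10% of UMIs from mitochondrial genes numbered 1410, 657 and 625, with medians of 82741.5, 60160 and 58554 UMIs. BELAs shared 2 barcodes with Epi cysts and 0 with VE cysts, Epi and VE cysts shared 1, and none of the shared barcodes passed in both libraries. A cell was called VE where UMIs of Gata6, Sox17, Dab2 and Cubn outnumbered those of Pou5f1, Sox2, Nanog and Fgf4, and Epi otherwise, which gave 868 Epi and 542 VE cells in BELAs, 656 and 1 in Epi cysts, and 48 and 577 in VE cysts. A set of 7 further VE markers summed to 7112 and 6051 UMIs per 1000000 (CPM) in VE cells (BELAs, then VE cysts) and to 781 and 280 CPM in Epi cells (BELAs, then Epi cysts). The 8 parietal endoderm markers summed to 21479 CPM in the VE cells of VE cysts but 8292 CPM in the BELA VE cells, so that VE here names the lineage and not the visceral subtype. Levels are the summed UMIs of a gene per 1000000 UMIs of the group, with exact 95% Poisson intervals in parentheses. With 1 library a condition there is no replicate check and no test, intervals cover counting error only, and counts of genes as higher or lower take those at least 2-fold apart among genes at 1 CPM or more in either group. Shares of cells with a UMI come from cells thinned to 40000 UMIs.

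**Figure D1:**
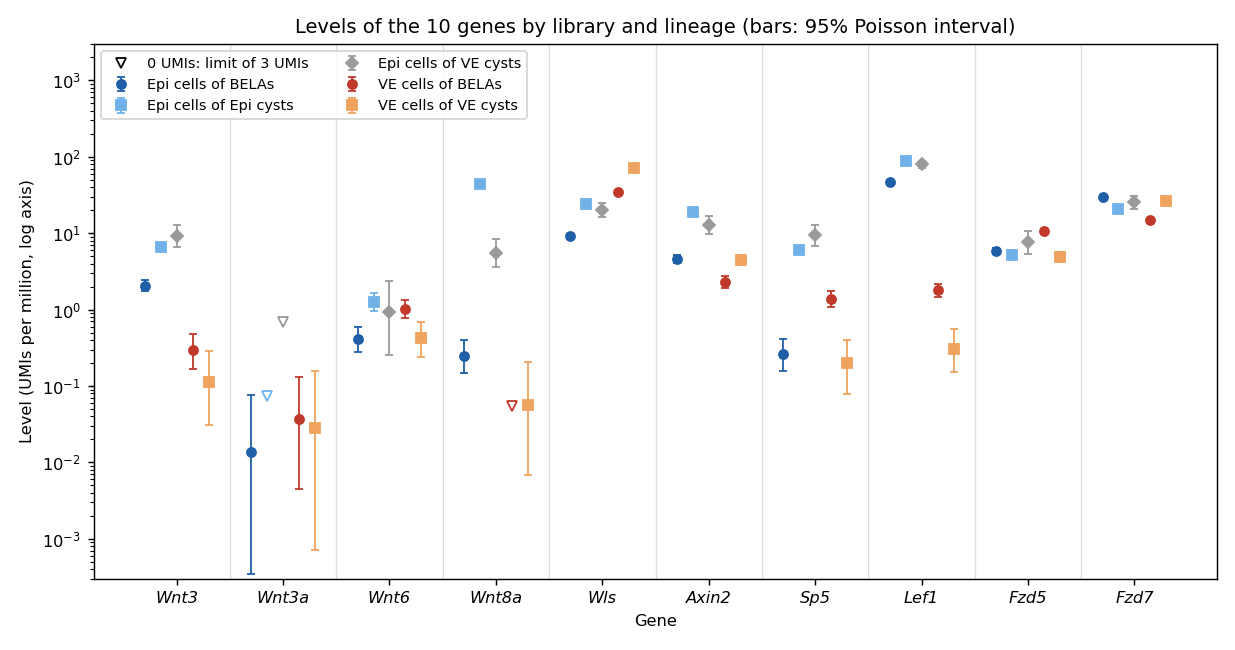
Levels of the 10 genes (CPM, log axis) in 3 groups of Epi and 2 groups of VE cells, with the library named for each; bars are 95% Poisson intervals and open triangles mark groups with 0 UMIs at the level of 3 UMIs. Wnt8a spans the widest range, from 44.2 CPM in Epi cysts to 0 UMIs in VE cells of BELAs, and Lef1 separates all 3 Epi groups from both VE groups.

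The first comparison asks how the pathway differs between Epi cells that grew with a VE layer and Epi cells that grew alone. Epi, too, names the lineage by the marker rule and not a cell type or stage. By comparison with embryo cells, the paper labeled most embryonic cells of Epi cysts as mesoderm. Those of BELAs it labeled as both epiblast and mesoderm. Wnt ligands, Wls and the targets Axin2 and Sp5 stood lower in the Epi cells of BELAs than in Epi cysts, while the receptors Fzd5 and Fzd7 did not. Of the 9 genes that reached 1 CPM, 6 were lower (Wnt3, Wnt6, Wnt8a, Wls, Axin2 and Sp5) and 0 higher, where 4.95% of the 12879 genes tested were lower and 7.38% higher. The median log2 ratio of the 9 was -1.61, beside -0.04 for all genes tested. Wnt6, Wnt8a and Sp5 reached 1 CPM only in Epi cysts, so the count and the median are descriptions.

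Wnt8a, a ligand of the epiblast and streak, differed most. It stood at 44.2 CPM (42.2 to 46.3) in Epi cysts and at 0.250 CPM (0.148 to 0.395) in Epi cells of BELAs, a difference of 177-fold (112 to 299). In the 48 Epi cells of VE cysts it was at 5.57 CPM (3.57 to 8.29), between these 2 libraries and apart from both. Of the thinned Epi cyst cells 64.7% (60.7 to 68.5) held Wnt8a, against 0.874% (0.352 to 1.79) of BELA Epi cells. Of the 542 VE cells of BELAs, which should lack it, 0 held a UMI, where the floor of 3 UMIs over the group lies at 0.0550 CPM and the upper Poisson limit at 0.0677 CPM. The few BELA Epi cells with the transcript, 13 of 868 with 18 UMIs in all, held up to 4 UMIs each, against up to 19 in a cell of Epi cysts.

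Wnt3 (chromosome 11, 103774150 to 103817957, plus strand) was at 2.07 CPM (1.75 to 2.43) in BELA Epi cells, 6.63 CPM (5.86 to 7.47) in Epi cysts and 9.29 CPM (6.64 to 12.6) in Epi cells of VE cysts. BELAs were thus 3.21-fold (2.62 to 3.94) lower than Epi cysts, while the intervals of the last pair overlapped. Wnt6 (chromosome 1, 74771892 to 74785322, plus strand) was low everywhere, at 0.416 CPM (0.281 to 0.594) in BELA Epi cells, 1.27 CPM (0.950 to 1.67) in Epi cysts and 0.929 CPM (0.253 to 2.38) in Epi cells of VE cysts. Wnt3a, which acts later in the streak and tail bud, was close to undetected, with 1 UMI in BELA Epi cells, 2 in BELA VE cells, 1 in VE cells of VE cysts and 0 in the other Epi cells. The floor of 3 UMIs lies at 0.0734 CPM in Epi cysts and the upper Poisson limit there at 0.0902 CPM, so no order of Wnt3a levels can be read.

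Wls (chromosome 3, 159839672 to 159938664, plus strand), the carrier that releases Wnt proteins, was at 9.17 CPM (8.48 to 9.89) in BELA Epi cells and 24.1 CPM (22.6 to 25.7) in Epi cysts, 2.63-fold (2.38 to 2.91) lower in BELAs. Epi cells of VE cysts held 20.4 CPM (16.4 to 25.2), which overlapped Epi cysts but not BELAs, with up to 15 UMIs in 1 thinned cell. The share of cells with a Wls UMI was 28.2% (25.1 to 31.5) in BELAs, 53.2% (49.1 to 57.3) in Epi cysts and 29.5% (16.8 to 45.2) in Epi cells of VE cysts, so that by share the last group overlapped BELAs and not Epi cysts.

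The receptors behaved differently. Fzd7 (chromosome 1, 59482424 to 59486955, plus strand), a Frizzled receptor, was at 29.8 CPM (28.5 to 31.0) in BELA Epi cells, 21.0 CPM (19.6 to 22.4) in Epi cysts and 25.3 CPM (20.8 to 30.5) in Epi cells of VE cysts. It was 1.42-fold (1.31 to 1.54) higher in BELAs, short of 2-fold. Fzd5 (chromosome 1, 64730558 to 64737751, minus strand) was at 5.88 CPM (5.33 to 6.47), 5.23 CPM (4.56 to 5.99) and 7.66 CPM (5.27 to 10.8) in the same groups, with intervals that overlapped throughout.

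Among the targets, Axin2 (chromosome 11, 108920349 to 108950783, plus strand) was at 4.60 CPM (4.12 to 5.13) in BELA Epi cells, 19.2 CPM (17.9 to 20.6) in Epi cysts and 13.0 CPM (9.82 to 16.9) in Epi cells of VE cysts. It was 4.18-fold (3.67 to 4.76) lower in BELAs than in Epi cysts, with a UMI in 15.5% (13.0 to 18.2) and 45.3% (41.2 to 49.4) of cells. Sp5 (chromosome 2, 70474923 to 70477729, plus strand), whose promoter is shown above, was at 0.263 CPM (0.159 to 0.411), 6.09 CPM (5.36 to 6.90) and 9.52 CPM (6.83 to 12.9), 23.1-fold (14.5 to 39.0) lower in BELAs than in Epi cysts. Lef1 (chromosome 3, 131110471 to 131224356, plus strand) was at 46.2 CPM (44.6 to 47.8), 87.2 CPM (84.3 to 90.1) and 80.6 CPM (72.3 to 89.5), 1.89-fold (1.80 to 1.98) lower in BELAs and short of 2-fold. By level, all 3 targets, Wnt3 and Wnt8a were thus lowest in the Epi cells of BELAs among the 3 groups of Epi cells, with intervals that did not overlap the others.

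Cells with a T UMI made up 32.0% of Epi cyst cells, while T stood at 19.6 CPM there and at 0.347 CPM in BELA Epi cells, and the comparison was repeated with the 446 Epi cyst cells without a T UMI. Wnt3 was then 1.69-fold (1.29 to 2.19) lower in BELAs and no longer 2-fold apart. Wnt8a (157-fold, 98.8 to 266), Sp5 (14.2-fold, 8.64 to 24.5), Axin2 (3.63-fold, 3.15 to 4.19), Wnt6 (2.73-fold, 1.60 to 4.67) and Wls (2.59-fold, 2.32 to 2.89) remained at least 2-fold lower. The 2 libraries also differed in 7 further Epi markers, whose sum was 2543 CPM in BELAs against 1128 CPM, with 6 of the 7 higher in BELAs, Otx2, Fgf5 and Zfp42 among them. The part of these marker differences in the Wnt values was not tested.

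**Figure D2:**
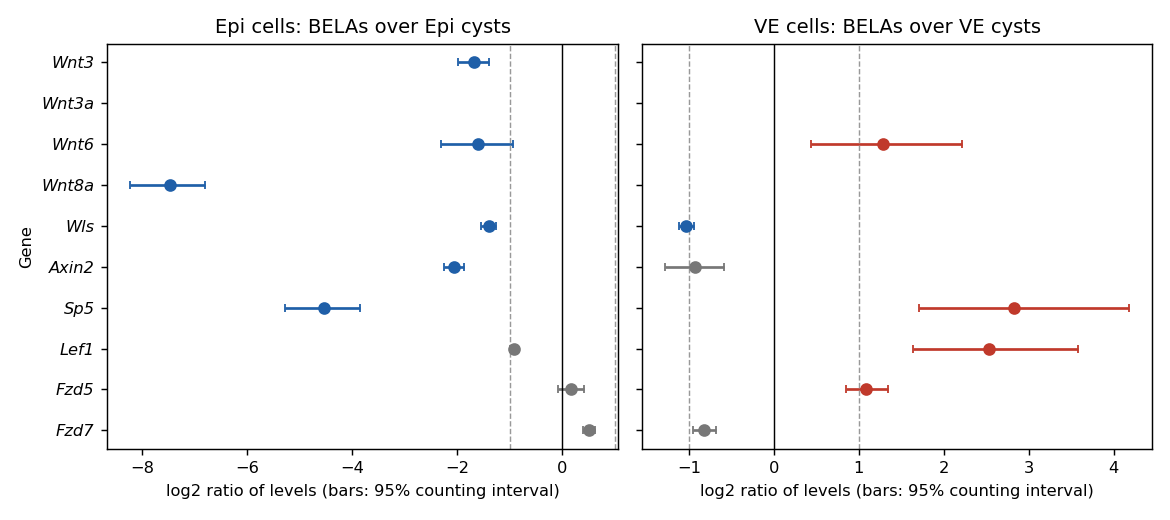
Log2 ratio of the level in BELAs over Epi cysts (Epi cells, left) and over VE cysts (VE cells, right), with 95% counting intervals; red and blue points are at least 2-fold higher and lower, grey points are not, dashed lines mark 2-fold, and genes under 1 CPM in both groups are left out. On the left 6 genes lie past the lower line, and on the right 4 lie past the upper line and Wls just past the lower.

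Within Epi cysts, the next comparison asks which of the genes accompany T. Wnt3 and Sp5 stood higher in cells with a T UMI, while Wnt8a, Axin2 and Fzd7 differed by less than 2-fold and Wls, Lef1, Fzd5 and Wnt6 were near equal or within counting error. Of the 9 genes tested, 2 were higher in the 210 cells with a T UMI than in the 446 without, and 0 lower, where 0.824% and 0.912% of 12497 genes were. The median log2 ratio of the 9 was 0.44. The groups had median depths of 63131 and 58805.5 UMIs.

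Wnt3 was at 12.9 CPM (11.1 to 15.0) in cells with a T UMI and 3.48 CPM (2.82 to 4.26) in the rest, 3.72-fold (2.88 to 4.82) higher. Its UMIs were found in 37.2% (30.5 to 44.4) of T-positive and 9.85% (7.10 to 13.2) of T-negative cells. Sp5 was at 10.8 CPM (9.13 to 12.7) and 3.74 CPM (3.05 to 4.54), 2.89-fold (2.23 to 3.76) higher. T-positive cells held 64.9% of all Wnt3 UMIs and 59.0% of all Sp5 UMIs of the Epi cysts, with 33.3% of the UMIs of all genes.

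Wnt8a was at 54.3 CPM (50.5 to 58.4) with T and 39.2 CPM (36.8 to 41.6) without, 1.39-fold (1.26 to 1.53) higher, and was present in most cells of both groups, 82.7% (76.6 to 87.7) and 55.8% (50.8 to 60.8). Axin2 was at 24.3 CPM and 16.7 CPM (15.2 to 18.3), 1.45-fold (1.26 to 1.68) higher. Their ratios were thus beyond counting error but well below those of Wnt3 and Sp5. Fzd7 ran the other way, at 14.0 CPM (12.1 to 16.2) with T and 24.4 CPM (22.6 to 26.3) without, 1.74-fold (1.48 to 2.05) lower. Wls (1.05-fold, 0.914 to 1.19), Fzd5 (1.04-fold, 0.772 to 1.39) and Wnt6 (1.36-fold, 0.742 to 2.44) had intervals that include equal levels, and Lef1 was 1.08-fold (1.00 to 1.15) higher.

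The same genes were followed over the number of T UMIs in 592 thinned cells, of which 437 had 0, 80 had 1, 28 had 2 to 3 and 47 had 4 or more. Wnt3 was at 4.46 CPM (3.53 to 5.57) at 0 T UMIs and 22.3 CPM (16.1 to 30.2) at 4 or more, with 11.2 and 8.93 CPM between. Sp5 was at 4.41 CPM (3.48 to 5.51) and 21.8 CPM (15.7 to 29.6) at these ends, with 6.56 and 8.04 CPM between. Both genes were highest in the cells with 4 or more T UMIs. Wnt8a went from 39.4 to 50.6, 60.7 and 68.6 CPM over the bins, and Fzd7 from 24.7 to 14.1, 15.2 and 6.91 CPM, while Axin2 was highest at 1 T UMI (27.5 CPM, 22.1 to 33.9) and at 19.7 CPM (13.9 to 27.1) at 4 or more. Fgf8 and Eomes, further genes of the streak, went from 22.1 to 213 CPM and from 6.64 to 30.9 CPM between the ends, and Tbx6 and Mesp1, genes of later mesoderm, stayed below 1 CPM in all 4 bins. Summed streak and mesoderm markers (10 genes, of which Evx1 and Msgn1 were at 0) stood at 126 CPM with T and 25.1 CPM without.

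**Figure D3:**
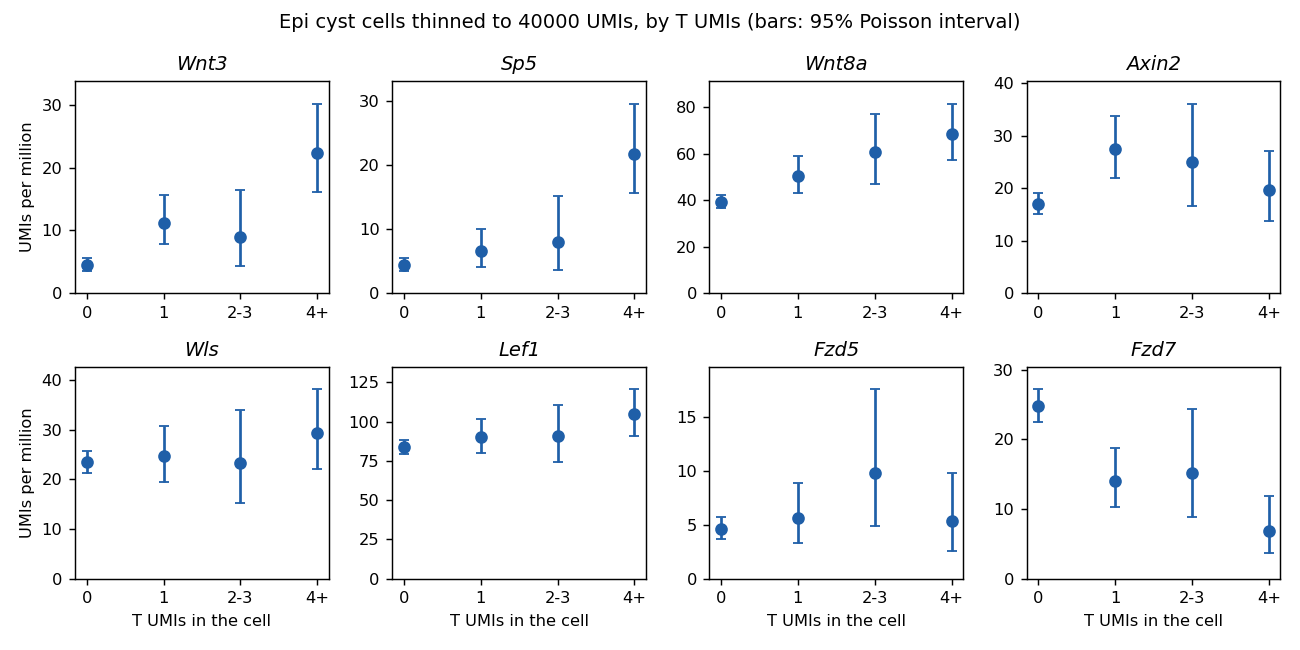
Levels of 8 of the genes (CPM, from 0) in 592 Epi cyst cells thinned to 40000 UMIs, by the number of T UMIs in the cell (437, 80, 28 and 47 cells); bars are 95% Poisson intervals. Wnt3 and Sp5 stand apart at 4 or more T UMIs, at 22.3 and 21.8 CPM, and Fzd7 is lowest there, at 6.91 CPM.

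VE cells were compared in the same way between BELAs, where they surround Epi cells, and VE cysts. Sp5, Lef1, Wnt6 and Fzd5 stood higher in BELAs and Wls lower, and the UMIs of Sp5 and Lef1 lay in few cells. Of the 7 genes that reached 1 CPM, 4 were higher and 1 lower, where 4.81% and 12.2% of 12741 genes were. Wnt6, Sp5 and Lef1 reached 1 CPM only in BELAs, where they were higher, so the count and the median log2 ratio of 1.09, beside -0.20 for all genes tested, are descriptions that the minimum shapes. Among genes at 10 CPM or more in both groups the median was -0.11, so that changes are relative to a small common shift.

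Wls, the most abundant of the 10 in VE cells, was at 71.0 CPM (68.3 to 73.9) in VE cysts and 34.7 CPM (33.2 to 36.3) in BELAs, 2.04-fold (1.93 to 2.17) lower. With the median of abundant genes set to 0 the log2 ratio went from -1.03 to -0.92, short of 2-fold. The share of cells with a UMI was 85.6% (82.1 to 88.7) and 66.0% (61.7 to 70.0). Axin2, at 4.45 CPM (3.79 to 5.20) and 2.33 CPM (1.94 to 2.77), and Fzd7, at 26.1 CPM (24.4 to 27.8) and 14.8 CPM (13.8 to 15.8), were lower in BELAs too, by 1.91-fold (1.50 to 2.43) and 1.77-fold (1.60 to 1.94). All 3 thus differed in the same direction. Over all 5 groups the level of Wls was highest in the VE cells of VE cysts, then in those of BELAs, then in Epi cysts and Epi cells of VE cysts, whose intervals overlapped, and lowest in Epi cells of BELAs. Wnt6 was at 1.03 CPM (0.776 to 1.33) in BELAs and 0.423 CPM (0.237 to 0.697) in VE cysts, from 56 and 15 UMIs, 2.43-fold (1.36 to 4.63) higher. Wnt3 and Wnt8a stayed below 1 CPM in both, with 16 and 0 UMIs in BELAs and 4 and 2 in VE cysts.

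Sp5 was at 1.39 CPM (1.10 to 1.74) in VE cells of BELAs and 0.197 CPM (0.0793 to 0.406) in VE cysts, 7.07-fold (3.27 to 18.2) higher. Its 76 UMIs lay in 27 of 542 cells, up to 11 in a cell, and 24 of these 27 were among the 141 cells with the highest AVE marker sum. Fzd5 was at 10.5 CPM (9.70 to 11.4) and 4.96 CPM (4.25 to 5.75), 2.13-fold (1.79 to 2.53) higher, with 84 of its 167 positive cells among those 141. Without these 141 cells the log2 ratio over VE cysts turned to -0.95 for Sp5 and -0.85 for Fzd5. All VE cells of VE cysts were kept there. Of the 76 Sp5 UMIs 72 lay in the 141 cells. The -0.95 thus rested on few UMIs, under 1 CPM in both libraries, and gives no direction. Lef1 stayed at 2.33 and Wnt6 at 1.44. Fzd7, Axin2 and Wls were then all at least 2-fold lower, at -1.02, -1.02 and -1.25. With 5000 genes or more and no more than 5% mitochondrial UMIs, the log2 ratios of Fzd5 and Wnt6 were 0.36 and 0.92, short of 2-fold.

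Lef1 was at 1.80 CPM (1.46 to 2.19) in VE cells of BELAs and 0.310 CPM (0.155 to 0.555) in VE cysts, 5.80-fold (3.10 to 12.0) higher. Of the 7 further Epi markers 5 were also higher in BELA VE cells, Otx2 and Dnmt3b among them, with sums of 1904 and 844 CPM. The 42 VE cells of BELAs in which the Epi markers of the lineage rule were over 5% of the lineage marker UMIs held 81.6% of the Lef1 UMIs. They held 9.99% of the UMIs of all genes, and only 19.7% of the Otx2 and 16.3% of the Dnmt3b UMIs. Lef1 was at 14.7 CPM (11.6 to 18.3) in those 42 cells and 0.367 CPM (0.217 to 0.580) in the other 500. The 42 cells had a median of 142032 UMIs, the others 88523. Without such cells in either library the log2 ratio of Lef1 over VE cysts was 0.68, short of 2-fold, while Sp5 (2.79), Wnt6 (2.15) and Fzd5 (1.05) remained past it. Sp5 stood at 1.47 CPM (0.634 to 2.89) and 1.39 CPM (1.08 to 1.76) in the 42 and the 500 cells, and Fzd5 at 12.9 CPM (10.0 to 16.2) and 10.3 CPM (9.41 to 11.2).

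The AVE marker sum, the thinned UMIs of Otx2, Eomes, Gsc, Lhx1, Dkk1, Cer1 and Lefty1, was then used to order the 514 VE cells of BELAs deep enough to thin. The 141 cells with 7 or more such UMIs were compared with the 164 cells with 1 or fewer, with 21 and 97 cells right at these limits. Sp5, Fzd5 and Lef1 stood higher in the cells at the top. Of 7 genes tested 3 were higher and 0 lower, where 5.61% and 3.13% of 12346 genes were (8.74% in either direction), and the median log2 ratio was 0.77. The sum is a range cut from a continuous score, and none of the 10 genes enters it. Sp5 reached 1 CPM only in the top cells, so the count and the median are descriptions here too.

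Fzd5 was at 30.5 CPM (27.8 to 33.4) in the top and 2.28 CPM (1.60 to 3.14) in the bottom cells, 13.4-fold (9.57 to 19.3) higher, with a UMI in 44.0% (35.6 to 52.6) and 7.93% (4.29 to 13.2) of them. Sp5 was at 4.70 CPM (3.67 to 5.91) against a single UMI (0.0615 CPM, 0.00156 to 0.343), a ratio of 76.4 (13.3 to 3058). Over the 4 ranges of the sum Fzd5 went through 2.28, 2.97, 2.57 and 30.5 CPM. Sp5 went through 0.0615, 0.152, 0.112 and 4.70 CPM. For both only the highest range stood apart, which has no upper limit. Wls followed at a smaller size, at 30.6, 28.3, 29.0 and 47.4 CPM, and so did Fzd7, at 11.6, 12.9, 12.8 and 19.8 CPM. Of the genes in the sum, Otx2 (2.71, 7.23, 5.58 and 75.9 CPM) and Cer1 (0, 0.0761, 0 and 5.02 CPM) also had no steady rise below it. Eomes, Gsc, Lhx1, Dkk1 and Lefty1 rose over each range, Lhx1 through 6.15, 14.8, 29.7 and 143 CPM. The part of the cut of the ranges in the step was not tested. Axin2, the most general target of the pathway, was at 2.67 CPM (1.92 to 3.63) in the top and 1.72 CPM (1.14 to 2.49) in the bottom cells, with overlapping intervals.

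Lef1 was at 2.41 CPM (1.70 to 3.33) and 1.11 CPM (0.656 to 1.75), 2.18-fold (1.21 to 4.07) higher, with values of 2.36 and 1.34 CPM between, so its order over the ranges was not steady. Without the cells over the 5% limit of Epi markers Lef1 was below 1 CPM at both ends, while Sp5 and Fzd5 kept log2 ratios of 6.11 and 3.89. Wnt6 ran the other way at 0.718 CPM (0.358 to 1.28) and 1.41 CPM (0.897 to 2.12), within the counting error of 11 and 23 UMIs. Parietal markers stood at 5285 CPM in the top and 10292 CPM in the bottom cells, and median depth was 100457 and 88559 UMIs. Of the 7 further Epi markers 4 were also higher in the top cells, Otx2 (part of the sum), Fgf5 and Utf1 among them. The part of these differences in the Wnt values was not tested. Against VE cysts, the bottom cells were lower for Wls (2.32-fold, 2.11 to 2.56), Fzd7 (2.25-fold, 1.93 to 2.65), Axin2 (2.59-fold, 1.72 to 4.02) and Fzd5 (2.18-fold, 1.52 to 3.20). Wnt6 (3.35-fold, 1.67 to 6.90) and Lef1 (3.57-fold, 1.60 to 8.37) were higher in them than in VE cysts. The Lef1 value rested on 18 UMIs, and Lef1 in BELA VE cells lay below the background of Epi genes given below.

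**Figure D4:**
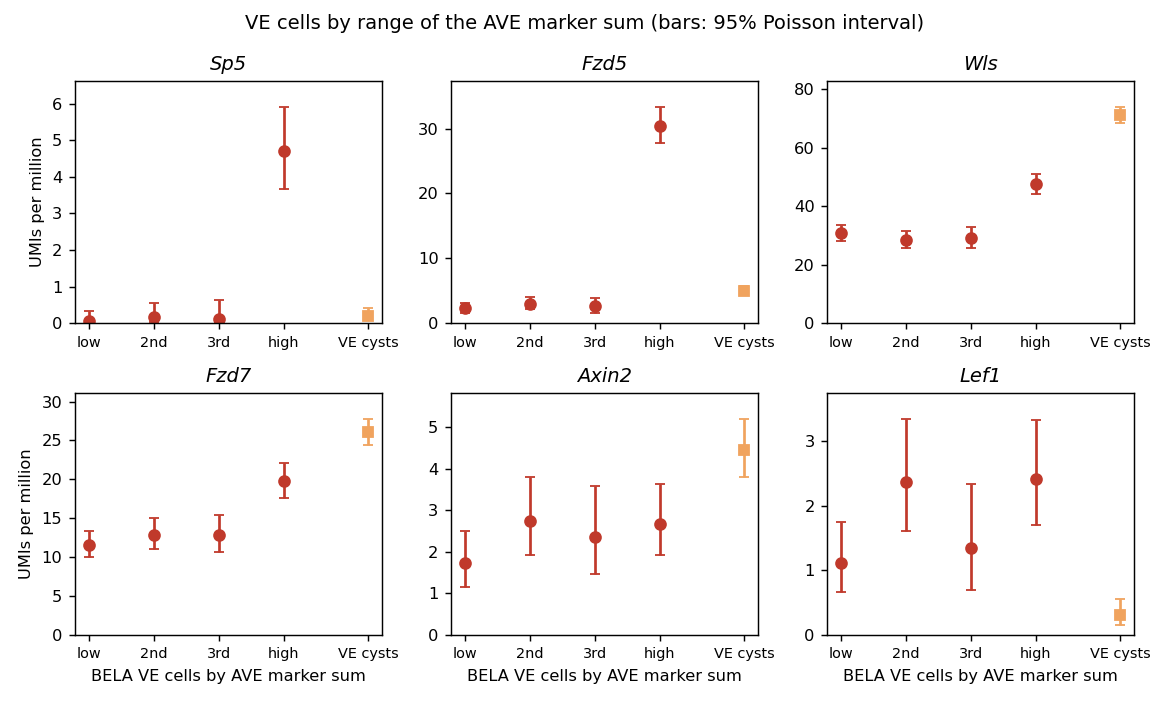
Levels of 6 of the genes (CPM, from 0) in VE cells of BELAs in 4 ranges of the AVE marker sum (164, 127, 82 and 141 cells, circles) and in all VE cells of VE cysts (squares); bars are 95% Poisson intervals. Sp5 and Fzd5 stand apart only in the highest range, which has no upper limit, at 4.70 and 30.5 CPM. Wls, Fzd7 and Axin2 are highest in VE cysts.

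Within BELAs, the lineages of the same aggregates and the same library were compared. Wnt3, Lef1 and Fzd7 were lower in VE cells, and Wls, Wnt6 and Sp5 higher. Of the 8 genes tested 3 were higher and 3 lower, where 19.1% and 20.8% of 13178 genes were (39.8% in either direction). Wnt3, Wnt6 and Sp5 reached 1 CPM only in the lineage where they were higher. The median log2 ratio was -0.07. Lef1 was 25.7-fold (21.0 to 31.7) and Wnt3 7.04-fold (4.20 to 12.6) lower in VE cells, while Wls was 3.79-fold (3.47 to 4.15), Sp5 5.29-fold (3.17 to 9.27) and Wnt6 2.47-fold (1.56 to 3.99) higher. Fzd7 was 2.02-fold (1.86 to 2.19) lower, Axin2 1.98-fold (1.61 to 2.44) lower and Fzd5 1.79-fold (1.58 to 2.04) higher. Wnt8a, with 18 UMIs in Epi and 0 in VE cells, was under 1 CPM in both. Against the floor of 3 UMIs it was at least 4.54-fold lower in VE cells, and the lower limit of the exact counting interval was 3.32-fold.

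Genes of one lineage also had UMIs in cells called as the other, which gives a background for low levels. Whether such UMIs came from other cells or from expression was not tested. A set of 14 genes of BELA Epi cells that VE cells of VE cysts nearly lack stood in BELA VE cells at a median of 6.32% (quartiles 5.38 to 9.93) of their Epi level. Lef1, at 3.89% of its Epi level, was below that background, so that expression of Lef1 in BELA VE cells cannot be told apart from it. Wnt3 stood at 14.2% on 16 UMIs, and its interval overlapped that background. Of these 16 UMIs 7 lay in the 42 cells over the limit of Epi markers (1.29 CPM there and 0.183 CPM in the other 500). In the other direction 66 VE genes stood in BELA Epi cells at 1.37% (0.812 to 2.42) of their VE level, and Wls at 26.4% was well above.

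Without the 141 cells of highest AVE marker sum the log2 ratio of Sp5 in VE over Epi cells turned from 2.40 to -1.37, and Fzd5 went to -1.09. For Sp5 72 of the 76 VE UMIs lay in the 141 cells, and Epi cells held 19, so that its ratio without them rested on few UMIs. In the VE cyst library, where the 48 Epi cells are the reference, Lef1 was 260-fold (143 to 526), Wnt3 82.4-fold (29.8 to 317) and Sp5 48.3-fold (21.4 to 128) lower in VE cells, Axin2 was 2.92-fold (2.11 to 3.99) lower and Wls 3.48-fold (2.81 to 4.35) higher. Lef1, Wnt3 and Axin2 were thus lower and Wls higher in the VE cells of both mixed libraries. Wnt8a was lower in them too, with 18 UMIs in Epi and 0 in VE cells of BELAs and 24 and 2 in VE cysts. Sp5 and Fzd5 (1.55-fold, 1.03 to 2.25, lower in VE cells of VE cysts) ran in opposite directions. In BELAs this rested on the 141 cells. Without them Fzd5 was lower in VE cells, and Sp5 was under 1 CPM in both lineages, with too few UMIs for a direction.

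The 48 Epi cells of VE cysts came from a library of mostly VE cells, but their levels of Wnt3, Sp5 and Axin2 were closer to Epi cysts than to BELAs. Against BELA Epi cells, Sp5 was 36.1-fold (20.5 to 65.9), Wnt8a 22.3-fold (11.6 to 43.7), Wnt3 4.50-fold (3.09 to 6.41) and Axin2 2.82-fold (2.09 to 3.76) higher. Against Epi cysts, Wnt8a was 7.93-fold (5.31 to 12.4) and Axin2 1.48-fold (1.13 to 1.98) lower. The intervals of the levels of Wnt3, Wnt6, Wls, Lef1, Fzd5 and Fzd7 overlapped. Those of Sp5 overlapped only just, at a ratio of 1.56 (1.09 to 2.18). The 41 UMIs of Sp5 lay in 18.8% of the 48 cells. T was at 1.39 CPM in these cells, 6 UMIs in all. They were few, 4 of them were ties of the lineage rule, and VE cysts with a visible Epi core had been left out, so that they are not a sample of all Epi cells of that culture.

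Covariation was described by Spearman correlation over thinned cells of 1 library and lineage, which share their library, depth and composition. Pairs among the 10 genes were weakly correlated. In Epi cysts (592 cells) 36 of 45 pairs had enough positive cells for a value, from -0.148 to 0.237 with a median of 0.02, and the highest were Wnt8a with Axin2 (0.237) and Wnt8a with Wls (0.226). Both genes of the first pair were found in 206 cells, where 173 would hold them at unrelated positions. Wnt3 and Sp5, the genes that differed most with T, correlated more with T (0.304 and 0.278) than Wnt8a did (0.241), and Fzd7 was negative (-0.216). In sparse counts such values are small, and no relation between the members is read from them.

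The genes most like each member, among those with a UMI in at least 10% of cells, gave higher values in Epi cysts. For Wnt8a they included Hoxb1 (0.529) and Meis2 (0.519), patterning factors, out of 10379 genes compared. Meis2 and Hoxb1 also led for Wls (0.347 and 0.312), and Meis2 (0.304) and Epha4 (0.296) were among those of Axin2. Wnt8a (-0.413), Wls (-0.322) and Axin2 (-0.269) were negatively correlated with Otx2, a factor of the anterior epiblast, and Fzd7 was positive (0.220). The genes most like Fzd7 were Tcf7l1 (0.255), a TCF factor that represses targets, and Dnmt3b (0.253), a DNA methyltransferase of the epiblast. For Lef1 they were Cenpf (0.273) and Top2a (0.266), genes of dividing cells. Meis2 was thus among the closest 3 genes of Wnt8a, Wls and Axin2, and of neither Lef1 nor Fzd7.

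In the VE cells of BELAs (514 cells) 21 pairs had a value, and the highest were Wls with Fzd5 (0.257), Sp5 with Fzd5 (0.221) and Fzd5 with Fzd7 (0.206). Fzd5 correlated with Fgf8 (0.571), Otx2 (0.544), Sfrp1 (0.521) and Sfrp5 (0.489), and 55 cells held both Fzd5 and Fgf8, where 16.1 would at unrelated positions. Sp5, found in only 14 thinned cells, shared 12 of them with Fgf8 and 12 with Otx2. In BELA Epi cells the highest pair was Lef1 with Fzd7 (0.173), and both had Dnmt3b among their closest genes (0.287 and 0.217). In VE cells of VE cysts 6 pairs had a value, with a highest of 0.0493.

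**Figure D5:**
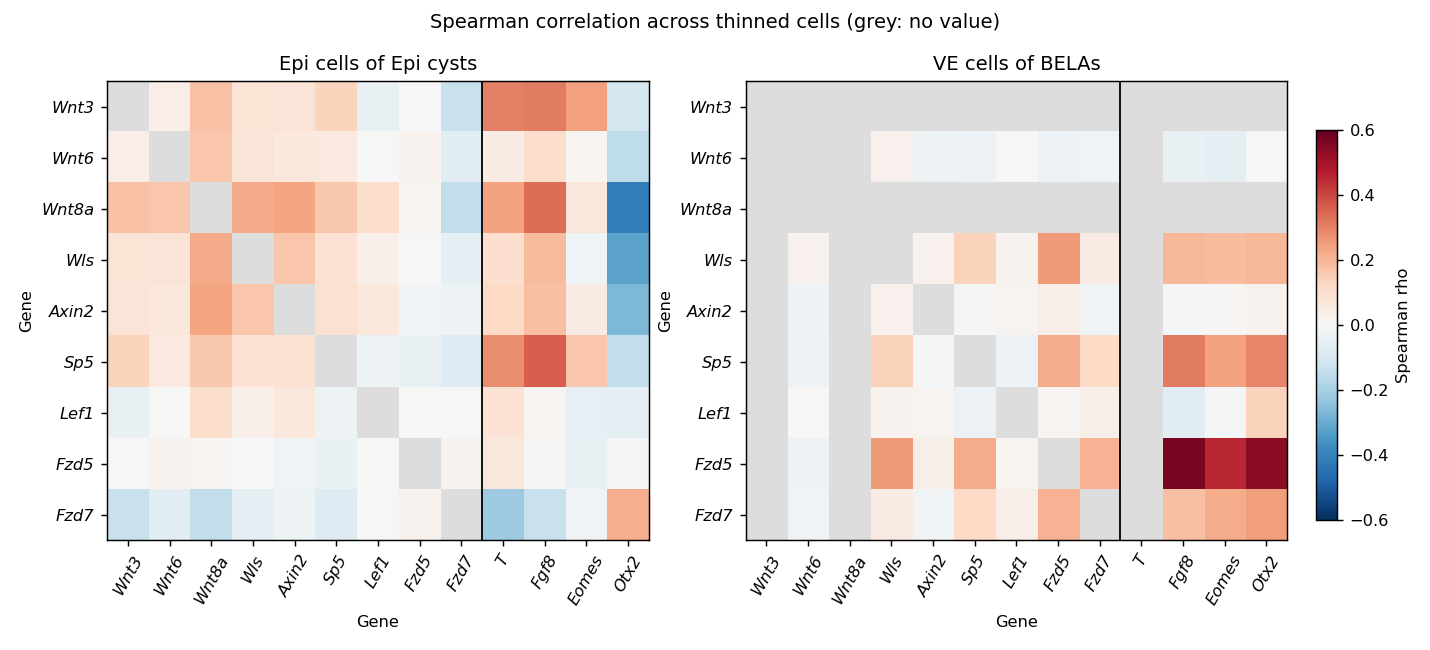
Spearman correlation (colour, from -0.6 to 0.6) between 9 of the genes and with T, Fgf8, Eomes and Otx2 to the right of the line, over 592 Epi cyst cells (left) and 514 VE cells of BELAs (right), thinned; grey marks no value. Member pairs are pale on the left, where Wnt8a with Otx2 (-0.413) is the strongest cell, and Fzd5 with Fgf8 (0.571) and Otx2 (0.544) is the strongest on the right.

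The other 82 genes of the pathway set these values in context. In Epi cells, 60 were tested between BELAs and Epi cysts. Of these 2 were higher and 17 lower, where 7.38% and 4.95% of all genes tested were. Their median log2 ratio was -0.36. At 10 CPM or more the lower genes were the Wnt receptors Ror2 (15.6-fold, 12.8 to 19.1) and Ror1 (2.07-fold, 1.79 to 2.40), and among other targets Sp8 (52.0-fold, 35.5 to 79.4), a relative of Sp5, and Tnfrsf19 (20.9-fold, 17.4 to 25.3). Of 12 intracellular components, β-catenin, the APC and AXIN scaffolds, GSK3 and Dishevelled genes among them, 0 were past 2-fold between libraries in either lineage. Of all genes tested 12.3% were in Epi and 17.0% in VE cells, so that 0 of 12 is a description. Medians of the 12 were 0.02 in Epi and -0.38 in VE cells. The 17 genes lower in BELA Epi cells lay in the other lists. Among them were 5 of 17 tested receptors and their regulators and 4 of 11 tested targets. Between Epi cyst cells with and without T, 61 were tested, with 3 higher and 2 lower, none of them at 10 CPM. Of all genes tested there 0.824% were higher and 0.912% lower.

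In VE cells, 56 were tested between BELAs and VE cysts. Of these 6 were higher and 15 lower, where 4.81% and 12.2% of all genes tested were. Sfrp1, a secreted Wnt inhibitor, was 29.9-fold (24.9 to 36.2) higher in BELAs, while its relatives Frzb (6.57-fold, 5.76 to 7.50) and Sfrp5 (4.12-fold, 3.84 to 4.41), the receptor Fzd4 (3.13-fold, 2.74 to 3.58) and the nuclear partners Bcl9 (2.23-fold, 1.99 to 2.50) and Tcf7l2 (2.12-fold, 2.05 to 2.21) were lower. Across the AVE marker sum, 53 were tested. In the top cells 11 were higher and 3 lower, where 5.61% and 3.13% of all genes tested were. Of the secreted antagonists 6 of 7 were higher there, Sfrp1 46.1-fold (38.2 to 56.3) and Sfrp5 6.20-fold (5.12 to 7.55), with Dkk1 and Cer1 among them because they are part of the sum. Dkk1 itself stood 8.56-fold (7.43 to 9.91) higher. Rspo3, a secreted activator of Wnt signals, was 3.29-fold (2.49 to 4.39) higher, and Bambi, in the target list and known as a decoy receptor of BMP signals, 2.01-fold (1.69 to 2.41).

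Between the lineages of BELAs, 58 were tested, with 16 higher and 20 lower in VE cells. Of all genes tested 19.1% were higher and 20.8% lower, so these counts are descriptions. Wnt11 (63.0-fold, 44.7 to 91.9), a ligand known mainly for signals that bypass β-catenin, and Porcn (36.6-fold, 30.5 to 44.4), the enzyme that adds the lipid to Wnt proteins, stood far higher in VE cells. Tcf7l2 was 6.53-fold (6.09 to 7.01) higher, and Tcf7l1 (4.06-fold, 3.80 to 4.33) and Tcf7 (4.79-fold, 4.25 to 5.42) were lower, as was Lef1 above. Tcf7l1 still stood at 20.3 CPM in VE cells. Of 9 secreted antagonists tested 5 were higher and 4 lower, with Dkk1 (94.2-fold, 69.0 to 132), Sfrp5 (51.3-fold, 35.5 to 76.9) and Sfrp1 (6.96-fold, 6.51 to 7.45) higher and Sfrp2 (16.1-fold, 13.5 to 19.3) lower in VE cells. Ccnd1, a cyclin of the target list, went from 174.9 CPM in Epi to 8.80 CPM in VE cells, 19.9-fold (18.1 to 21.8) lower. Tnks (2.59-fold, 2.45 to 2.74), which promotes the loss of AXIN proteins, and the β-catenin partner Bcl9l (2.68-fold, 2.45 to 2.93) were higher, and Bcl9 (2.82-fold, 2.55 to 3.12) and the receptor Fzd3 (2.61-fold, 2.24 to 3.05) lower. Porcn and Wls, which act on all Wnt ligands before release, were thus both higher in VE cells, while Wnt3 and the receptors Fzd2 (7.38-fold, 6.64 to 8.21) and Fzd7 stood higher in Epi cells.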

How the data were processed

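Single cells of 3 aggregates were profiled with 10x Genomics 3′ v3.1 chemistry, 1 library each. Reads were mapped to mm10 and tallied by the authors with Cell Ranger (version 4.0.0). What was deposited are counts of UMIs for each gene and barcode, with no normalization. Cells were kept at 4000 or more genes and 10% or fewer mitochondrial UMIs, and lineage was set by 4 VE against 4 Epi markers (1 tied cell in Epi cysts and 4 in VE cysts were called Epi). Counts were summed per group and divided by the group's total (CPM). Intervals are exact 95% Poisson for levels, exact conditional for ratios and Clopper-Pearson for shares, and cover counting error only. UMIs remove PCR copies, but cells of a library are not replicates, so no test was run. Thinning drew 40000 UMIs per cell without replacement, which left out 67 Epi and 28 VE cells of BELAs, 64 Epi cells of Epi cysts and 104 VE cells of VE cysts. Cell numbers and RNA per cell are not told apart by sums over cells. No doublet caller was run, and cells over 2 times the median depth were left out as an alternative.

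The members, the pathway lists and the marker lists were chosen with earlier results of these data known. Named genes are all members, pathway genes at least 2-fold apart with 10 CPM in either group, and the 3 genes of highest Spearman correlation with a member found in 20% of cells or more. One item among the latter is not reported here. The share limit of 5% Epi markers and the leaving out of the cells with the highest AVE marker sum were added after seeing the data. Coordinates are from GENCODE vM21 (GRCm38), promoters from RefSeq (GRCm38.p6). On the same strand the annotation overlaps Wls and Lef1 with 1 gene each that the count tables do not list. Axin2 and Wnt6 overlap a listed antisense gene each, and the counting by strand is not given in the sources used here. The code was tested on simulated counts. Python 3.11.15, NumPy 2.4.6, SciPy 1.17.1 and pandas 2.3.3 were used.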

Additional observations from a re-analysis of the deposited data

Results flagged for a closer look

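Sp5 and Wnt6 differed between BELAs and cysts in opposite directions in the lineages. The log2 ratio of BELAs over cysts was -4.53 for Sp5 in Epi cells and 2.82 in VE cells, and -1.61 and 1.28 for Wnt6. The difference between the lineages was not tested, since each aggregate has 1 library. For Sp5 the VE value came from the cells with the highest AVE marker sum, and without them it was -0.95, the same direction as in Epi cells. For Wnt6 the log2 ratio in VE cells was 1.44 without those cells, on 56 UMIs in all VE cells of BELAs and 15 in VE cysts.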

How the results depend on the processing

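Directions of the members called at least 2-fold apart held under all alternatives except without the cells of highest AVE marker sum, where the log2 ratio over VE cysts was -0.95 for Sp5 and -0.85 for Fzd5 and that of VE over Epi cells -1.37 for Sp5. That setting gave 2 higher and 3 lower in VE cells over VE cysts and 5 lower in VE over Epi cells. In it cells were left out of BELAs only, and the Sp5 ratios rested on few UMIs. For Epi cells, 4 were lower with 5 CPM added, 3 at a minimum of 10 CPM and 1 higher with no minimum (Wnt3a, 1 UMI). For VE cells over VE cysts, the higher genes were 0 with 5 CPM added, 2 with the stricter cell filter, 2 with lineage by 4 times the markers and 1 at a minimum of 10 CPM. The lower genes there were 0 with 5 CPM added, thinned, by mean single-cell CPM or with the median set to 0, and 2 with no minimum. For VE over Epi cells, higher were 1 with 5 CPM added and 1 at 10 CPM, and lower 1 with 5 CPM added. For T, higher was 1 with 5 CPM added, and lower 1 (Fzd7) with T counted after thinning or at 2 T UMIs or more. For the AVE marker sum, higher were 1 with 5 CPM added, 1 at 10 CPM and 5 with no minimum, and lower was 1 (Wnt6) thinned, with looser or stricter filters or by mean single-cell CPM. Other causes were not tested beyond the construction of each setting. Of 503 single log2 ratios under alternatives 446 stayed within their counting interval. No paired analysis was possible because each aggregate has 1 library. Depth limits Wnt3a, Wnt6 and, in VE cells, Sp5 and Lef1.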
